A study of Mus musculus with 12 samples.

Results

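The 7 genes described here, Plac1, Prl8a2, Sult2b1, Fabp7, Chrdl1, Arl8a and Epha7, were chosen by their measured difference in transcript level between Rnf2 mutant and control mouse oocytes. They are 7 of the 21526 genes measured and 7 of the 30 genes called in that comparison, so their values there describe the choice and are given without a test. The question is how the same genes behaved in oocytes that lacked Ring1 as well. Whole-transcript arrays were hybridised with RNA of germinal vesicle oocytes at full size, a stage that waits in meiotic prophase. The double mutant was Ring1-/-Rnf2F/FZp3-cre, the Rnf2 mutant Ring1+/+Rnf2F/FZp3-cre, the Ring1 mutant Ring1-/-Rnf2F/F and the control Ring1+/+Rnf2F/F. All 4 genotypes thus carried floxed Rnf2, and the Zp3 promoter limits Cre to growing oocytes, so Rnf2 was intact before that stage while Ring1 was absent from the start. Each genotype had 3 samples, each of 50 oocytes pooled from several females aged 5 to 10 weeks on a mixed 129/Sv and C57BL/6J background. The oocytes were collected 46 h after priming with 5 U of PMSG, in medium with 2.5 μM milrinone, which keeps them from resuming meiosis. In such pools, fewer oocytes with a transcript and less transcript per oocyte cannot be told apart.

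Ring1 and Rnf2 (also called Ring1A and Ring1B) are the E3 ligases of Polycomb repressive complex 1, which places ubiquitin on histone H2A at repressed genes, many of them with CpG-rich promoters. The 2 proteins can stand in for each other in many cells. Several of the listed genes have their best known roles outside the oocyte. Plac1 is an X-linked gene of the trophoblast needed for a normal placenta, and Prl8a2 encodes a prolactin-like hormone made by the decidua of the pregnant uterus. Fabp7 encodes the fatty acid binding protein of radial glia, and Chrdl1, also X-linked, a secreted antagonist of bone morphogenetic proteins. Sult2b1 encodes a sulfotransferase that acts on cholesterol and pregnenolone. Arl8a encodes a small GTPase of the lysosome that links it to kinesin motors, and Epha7 a receptor tyrosine kinase for ephrins.

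Promoter windows are shown because Polycomb binding is known to follow CpG content and because the genes that were higher in the Rnf2 mutant and those that were lower can be set side by side in this way. The windows, from RefSeq on GRCm38.p6, run from 250 bases before to 50 after a transcript start, and 5 of the 7 genes had 1 or more, 8 windows in all; Prl8a2 and Chrdl1 had no entry. Capitals mark each CG dinucleotide, and sequences read 5′ to 3′ on the strand of the gene. The windows are Plac1 window 1 (chrX:53240061-53240360, minus strand), Plac1 window 2 (chrX:53114356-53114655, minus strand), Sult2b1 window 1 (chr7:45759563-45759862, minus strand), Fabp7 (chr10:57784673-57784972, plus strand), Arl8a (chr1:135146584-135146883, plus strand) and Epha7 window 1 (chr4:28812881-28813180, plus strand).
Plac1 window 1: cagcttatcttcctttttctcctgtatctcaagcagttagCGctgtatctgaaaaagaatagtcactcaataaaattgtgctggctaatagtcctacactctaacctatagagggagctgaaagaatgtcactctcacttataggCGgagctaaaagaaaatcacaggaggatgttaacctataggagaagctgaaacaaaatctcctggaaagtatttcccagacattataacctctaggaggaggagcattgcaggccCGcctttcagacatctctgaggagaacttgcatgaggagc
Plac1 window 2: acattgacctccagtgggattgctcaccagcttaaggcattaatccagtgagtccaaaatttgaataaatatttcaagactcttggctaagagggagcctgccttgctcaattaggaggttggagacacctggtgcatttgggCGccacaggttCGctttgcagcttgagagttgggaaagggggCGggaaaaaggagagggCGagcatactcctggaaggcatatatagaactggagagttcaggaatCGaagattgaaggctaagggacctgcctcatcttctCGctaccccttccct
Sult2b1 window 1: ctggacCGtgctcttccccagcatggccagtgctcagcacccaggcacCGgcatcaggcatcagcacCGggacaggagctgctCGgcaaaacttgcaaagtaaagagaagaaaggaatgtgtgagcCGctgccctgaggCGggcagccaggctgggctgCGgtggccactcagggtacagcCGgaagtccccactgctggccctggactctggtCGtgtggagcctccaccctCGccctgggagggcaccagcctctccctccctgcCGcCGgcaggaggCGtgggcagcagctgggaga
Fabp7: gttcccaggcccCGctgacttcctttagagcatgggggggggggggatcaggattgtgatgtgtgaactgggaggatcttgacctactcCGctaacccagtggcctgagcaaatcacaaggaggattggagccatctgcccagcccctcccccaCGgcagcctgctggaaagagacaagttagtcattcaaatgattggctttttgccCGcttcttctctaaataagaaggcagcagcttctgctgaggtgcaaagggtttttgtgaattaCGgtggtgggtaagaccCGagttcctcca
Arl8a: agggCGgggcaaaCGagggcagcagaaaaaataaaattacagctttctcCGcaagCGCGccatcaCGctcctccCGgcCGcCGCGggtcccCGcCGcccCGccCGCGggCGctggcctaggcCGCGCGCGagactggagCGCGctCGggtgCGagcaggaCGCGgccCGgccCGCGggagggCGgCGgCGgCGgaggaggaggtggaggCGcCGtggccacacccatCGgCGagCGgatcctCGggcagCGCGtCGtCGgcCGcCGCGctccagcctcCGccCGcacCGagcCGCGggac
Epha7 window 1: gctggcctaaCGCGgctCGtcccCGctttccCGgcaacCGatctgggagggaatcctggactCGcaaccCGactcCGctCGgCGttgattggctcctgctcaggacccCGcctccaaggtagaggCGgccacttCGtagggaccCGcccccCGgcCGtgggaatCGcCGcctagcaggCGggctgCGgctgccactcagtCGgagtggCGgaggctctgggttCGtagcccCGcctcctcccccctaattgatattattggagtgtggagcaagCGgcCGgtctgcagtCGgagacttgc
The Arl8a window held 51 CG dinucleotides, a number reached by 0.715% of all 32851 windows. Epha7 window 1 held 28, a number reached by 14.2% of windows, and the overlapping window 2 held 27. Among the genes with a window, those that were higher in the Rnf2 mutant had fewer. A link between CpG content and direction was not tested. Plac1 held 3 and 6, Fabp7 6 and Sult2b1 13 and 15, against a median of 7 over all windows and quartiles of 3 and 20. The letters GGCGGGAA, the core of sites bound by E2F factors, searched on both strands, stood in Plac1 window 2 and in 2.19% of all windows. The E-box CACGTG stood in none of the 8 windows and in 7.15% of all. Which start each oocyte transcript uses was not tested.

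**Figure D1:**
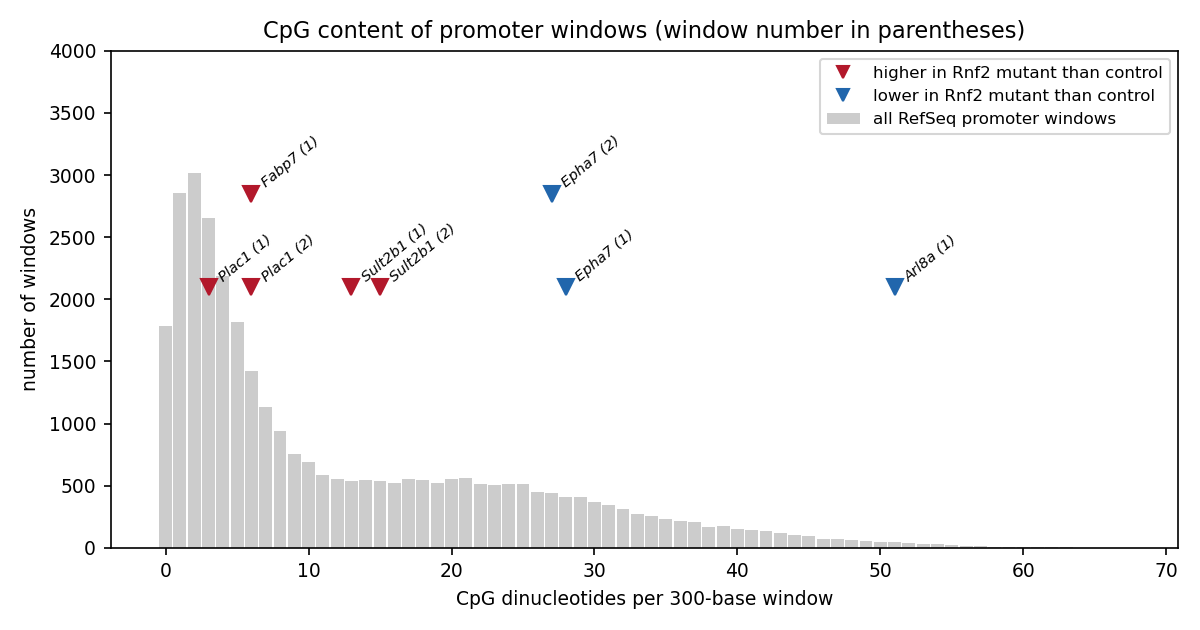
Number of CpG dinucleotides per 300-base promoter window on the horizontal axis, with grey bars for the number of RefSeq windows at each value and triangles for the windows of 5 of the 7 genes (the height of a triangle has no meaning). Red triangles, genes higher in the Rnf2 mutant than in control, lie between 3 and 15, and blue triangles, genes lower in the Rnf2 mutant, lie at 27, 28 and 51.

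Before the genes themselves, the samples were set against their labels. Rnf2 transcript read 5.68 to 6.01 log2 in the double mutants and 5.60 to 6.04 in the Rnf2 mutants, against 8.43 to 8.53 in the Ring1 mutants and 8.23 to 8.44 in the controls. Ring1 transcript read between 3.50 and 3.99 on all 12 arrays. The 1044 genes for olfactory receptors, taken to be mostly silent in oocytes, serve here as a floor, set at 3.82, their 95th percentile, so Ring1, close to that floor throughout, gives no check of its genotype. Arrays of a genotype correlated at 0.9959 to 0.997 across genes, which are not independent replicates. All 11 measured oocyte markers lay above the floor. All 7 listed genes also had a mean above it, but Prl8a2 read 3.58 to 3.68 in the controls, below the floor, where differences on the log2 scale are compressed. Depth in the sense of read counts does not apply to arrays, and 3 arrays per genotype limit the precision of each value.

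In the comparison that chose them, 5 of the 7 genes were higher in the Rnf2 mutant than in control and 2 were lower. Over all genes 0.0976% were called higher there and 0.0418% lower. The differences were 1.11 ± 0.14 log2 for Plac1, 1.04 ± 0.07 for Prl8a2, 0.98 ± 0.09 for Sult2b1, 0.78 ± 0.11 for Fabp7 and 0.74 ± 0.09 for Chrdl1 (SE of the limma fit, n = 3 arrays per genotype, as throughout). Arl8a differed by -1.18 ± 0.11 and Epha7 by -1.06 ± 0.11. The threshold of that comparison, a limma adjusted p of 0.05, lay among smaller changes. The 7 are not the largest changes called there: among the others, Mt1 differed by 4.79 ± 0.17, Ptgs2 by 1.12 ± 0.12, Pdia6 by 0.81 ± 0.12 and Rnf2 by -2.48 ± 0.11. The called genes with the smallest change in each direction were Mt4, with 0.41 ± 0.07, and Slc35b4, with -0.43 ± 0.07. Of the genes not called, those with the smallest p were Cxcr3, with 0.53 ± 0.09, and Alyref2, with -0.60 ± 0.10. The choice leans on the spread shared over all 12 arrays. With only the 6 arrays of these genotypes in the fit, 3 of the 7 genes passed, among 6 of all genes. The summed intensity of 25 granulosa and cumulus cell markers, of which 14 lay above the floor, ranged from 1423 to 1888 in the Rnf2 mutants and from 1126 to 1582 in the controls. Its part in the differences was not tested.

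The comparison of the double mutant with the Ring1 mutant asks what loss of Rnf2 does where Ring1 is absent. The choice was stated by the Rnf2 mutant against control, not by this difference. Earlier results of these data were known when the genes were chosen, however, so the calls here may not be independent of the choice. These arrays did enter the choice through the shared spread, which is also the spread of the test. With only the 6 arrays of these genotypes in the fit, 6 of the 7 genes were called, and 5992 of all 21526 genes. Here 6 of the 7 genes were called higher in the double mutant by limma and none lower. Plac1, Prl8a2, Fabp7 and Chrdl1 rose with the direction they had in the Rnf2 mutant, Arl8a and Epha7 rose against it, and Sult2b1 was not called. Over all 21526 genes 31.7% were called, 15.0% higher and 16.6% lower. The same 6 had every double-mutant array above every Ring1-mutant array, as did 18.8% of all genes. The median difference was 2.42 log2 over the 7 genes and -0.047 over all genes. The calls over all genes depend on the scaling. They numbered 3231 higher and 3584 lower as deposited, 2341 and 7559 when arrays were centred on their medians, and 4036 and 2502 when they were centred on the brightest 25% of genes.

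Plac1, the placental gene, had the largest rise of the 4 that kept their direction. It read 8.39, 8.31 and 8.37 log2 in the double mutants and 5.57, 5.57 and 5.93 in the Rnf2 mutants, against 4.72, 4.96 and 4.48 in the Ring1 mutants and 4.83, 4.42 and 4.50 in the controls. The double mutants stood 2.39 log2 above the highest Rnf2 mutant, which in turn lay above every Ring1 mutant and control, while Ring1 mutants and controls overlapped. It rose by 3.64 ± 0.14 log2, or 12.4-fold, in the double mutant against the Ring1 mutant (limma, adjusted p = 2e-09). Loss of Ring1 with Rnf2 present moved it by 0.14 ± 0.14 in the Ring1 mutant against control, a difference given without a test because the controls took part in the choice.

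Chrdl1, the antagonist of bone morphogenetic proteins, showed 4 separate levels. It read 7.74, 7.79 and 7.81 log2 in the double mutants and 5.03, 5.18 and 5.41 in the Rnf2 mutants, against 4.56, 4.81 and 4.79 in the Ring1 mutants and 4.45, 4.51 and 4.43 in the controls. No 2 genotypes overlapped, although the lowest Ring1 mutant was 0.05 log2 above the highest control. Chrdl1 rose by 3.06 ± 0.09 log2, or 8.35-fold, in the double mutant against the Ring1 mutant (limma, adjusted p = 4.9e-10).

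Fabp7, the fatty acid binding protein, followed the order of Plac1. It read 9.24, 9.26 and 9.20 log2 in the double mutants and 7.26, 7.29 and 7.10 in the Rnf2 mutants, against 6.52, 6.72 and 6.49 in the Ring1 mutants and 6.66, 6.19 and 6.46 in the controls. Ring1 mutants and controls overlapped, and every Rnf2 mutant lay above both and below every double mutant. The rise in the double mutant against the Ring1 mutant was 2.66 ± 0.11 log2, or 6.31-fold (limma, adjusted p = 3e-09).

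Prl8a2, the prolactin-family hormone, differed from these in the Ring1 mutant. It read 7.20, 7.23 and 7.14 log2 in the double mutants and 4.82, 4.64 and 4.55 in the Rnf2 mutants, against 4.81, 4.81 and 4.83 in the Ring1 mutants and 3.68, 3.62 and 3.58 in the controls. The single mutants overlapped each other and both lay above every control, and the double mutants stood 2.31 log2 or more above all of them. The Ring1 mutant differed from control by 1.19 ± 0.07 and the Rnf2 mutant by 1.04 ± 0.07, both against the same controls. Prl8a2 rose by 2.37 ± 0.07 log2, or 5.18-fold, in the double mutant against the Ring1 mutant (limma, adjusted p = 3.9e-10).

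Sult2b1, the sterol sulfotransferase, was highest in the Rnf2 mutant. It read 5.25, 5.04 and 5.17 log2 in the double mutants and 5.88, 5.92 and 5.98 in the Rnf2 mutants, against 5.09, 5.12 and 4.92 in the Ring1 mutants and 4.83, 5.11 and 4.91 in the controls. The Rnf2 mutants lay above every other array, and the remaining genotypes overlapped one another. The double mutant differed from the Ring1 mutant by 0.11 ± 0.09 log2 (limma, adjusted p = 0.385), with a 95% interval from -0.08 to 0.30, and the sign turned to -0.04 after quantile normalization and to -0.01 with arrays centred on the median. Against the Rnf2 mutant, whose arrays took part in the choice, the double mutant differed by -0.77 ± 0.09.

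Arl8a, the lysosomal GTPase, was low in the Rnf2 mutant and inside the range of the controls in the double mutant. It read 9.48, 9.42 and 9.43 log2 in the double mutants and 8.09, 8.24 and 8.05 in the Rnf2 mutants, against 9.07, 9.22 and 8.76 in the Ring1 mutants and 9.49, 9.27 and 9.17 in the controls. The Rnf2 mutants lay below every other array, and the double mutants overlapped the controls but not the Ring1 mutants. Arl8a was 0.43 ± 0.11 log2 higher in the double mutant than in the Ring1 mutant (limma, adjusted p = 0.011), with a 95% interval from 0.18 to 0.67. That call was lost with arrays centred on their median, where the difference was 0.30 (limma, adjusted p = 0.051). Its window above is the one with the most CG dinucleotides of the 8.

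Epha7, the ephrin receptor, changed sides. It read 7.81, 7.90 and 7.75 log2 in the double mutants and 4.71, 4.53 and 4.97 in the Rnf2 mutants, against 5.51, 5.46 and 5.22 in the Ring1 mutants and 5.69, 5.74 and 5.95 in the controls. No 2 genotypes overlapped, with the order double mutant, control, Ring1 mutant and Rnf2 mutant from high to low, and the Ring1 mutants 0.18 log2 below the lowest control. Epha7 rose by 2.42 ± 0.11 log2, or 5.36-fold, in the double mutant against the Ring1 mutant (limma, adjusted p = 1.1e-08). The double mutant also differed from control by 2.02 ± 0.11, a value given without a test.

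**Figure D2:**
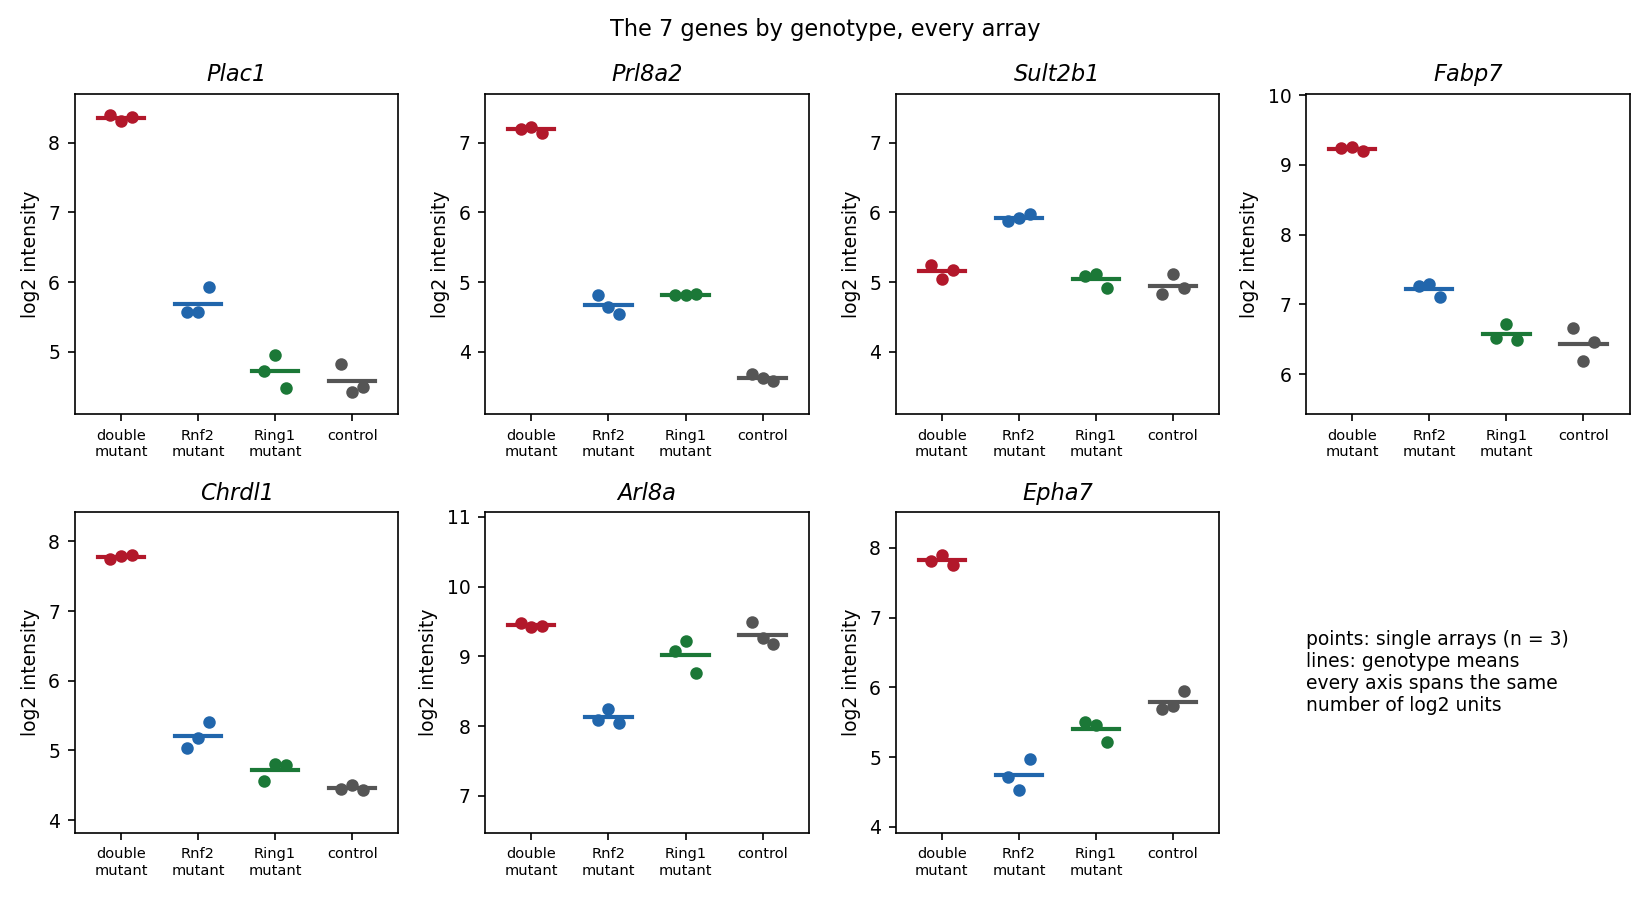
Log2 intensity (vertical axes) of each of the 7 genes on every array, by genotype, with points for the 3 arrays and a line for their mean; all vertical axes span the same number of log2 units. Plac1, Prl8a2, Fabp7 and Chrdl1 are highest in the double mutant, Sult2b1 is highest in the Rnf2 mutant, Arl8a is lowest in the Rnf2 mutant, and Epha7 is lowest in the Rnf2 mutant and highest in the double mutant.

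Set against the sum of the single-mutant differences, the double mutant differed for each of the 7 genes. This excess is the difference between double mutant and Ring1 mutant minus that between Rnf2 mutant and control, and it has no test here because the difference subtracted is the one that chose the genes. It was 2.53 ± 0.19 log2 for Plac1, 2.32 ± 0.13 for Chrdl1, 1.88 ± 0.15 for Fabp7 and 1.33 ± 0.10 for Prl8a2. Epha7 had the widest gap, 3.48 ± 0.16, and Arl8a had 1.61 ± 0.16. Sult2b1 went the other way, with -0.87 ± 0.12. Against the Rnf2 mutant, 6 of the 7 genes had every double-mutant array higher and 1, Sult2b1, had every array lower, where 18.3% and 23.8% of all genes did. The Rnf2 mutant arrays had been part of the choice. In the Ring1 mutant against control, 2 of the 7 genes, Prl8a2 and Chrdl1, had every array higher, as did 7.21% of all genes, and 1, Epha7, had every array lower, as did 9.42%.

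**Figure D3:**
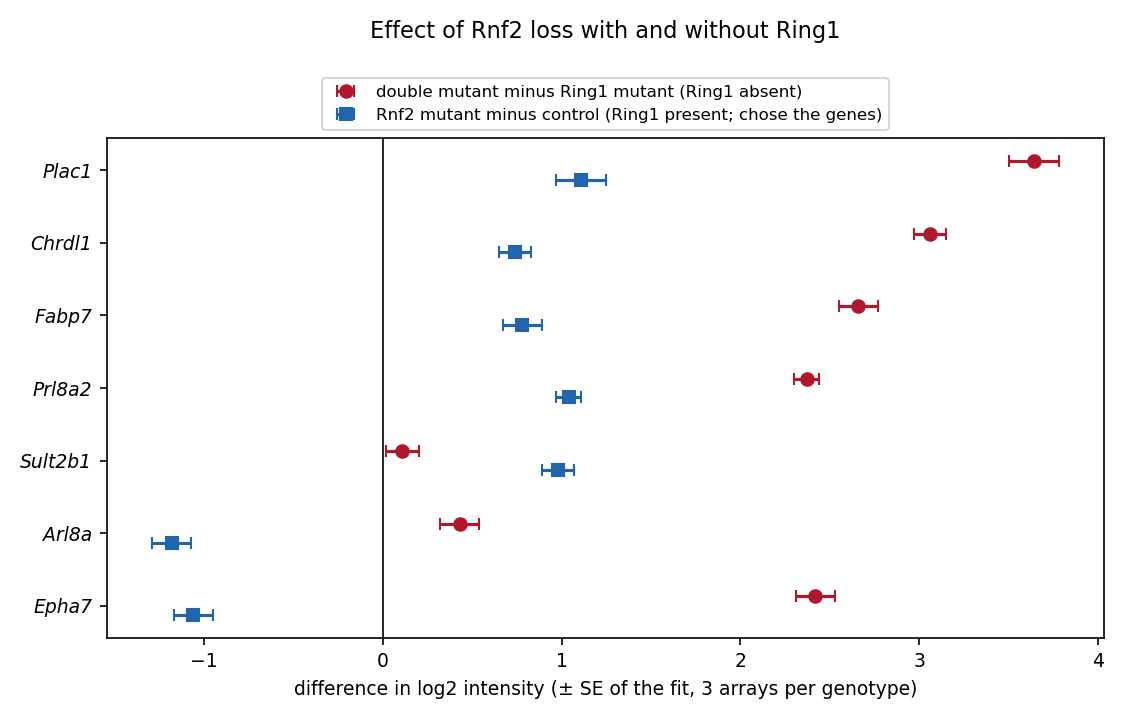
Difference in log2 intensity (horizontal axis, ± SE of the limma fit, 3 arrays per genotype) on loss of Rnf2 for each gene, as red circles for the double mutant minus the Ring1 mutant and blue squares for the Rnf2 mutant minus control, which chose the genes. The red circles lie at 2.37 to 3.64 for the upper 4 genes, near 0 for Sult2b1 and to the right of 0 for Arl8a and Epha7, whose blue squares lie at -1.18 and -1.06.

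Counts over all 30 genes called in the Rnf2 mutant against control include the 7. They give no separate support for a kept or a reversed direction. Of the 21 that were higher there, 13 were also called higher in the double mutant against the Ring1 mutant, 1 was called lower and the rest were not called. Of the 9 that were lower, 5 were also called lower, Rnf2 itself among them, and 3 were called higher. Over all genes 15.0% were called higher and 16.6% lower in that comparison. Plac1, Prl8a2, Fabp7 and Chrdl1 are among the 13. Those 3 were Epha7, Arl8a and Elf3, an epithelial transcription factor gene named here after its values were seen. Elf3 is thus the only gene outside the 7 that was called lower in the Rnf2 mutant against control and called higher here. Genes that were lower there without a call are not counted. Elf3 averaged 5.32 ± 0.19 log2 in the double mutants, 3.70 ± 0.17 in the Rnf2 mutants, 4.15 ± 0.19 in the Ring1 mutants and 4.56 ± 0.23 in the controls (SD, n = 3). It rose by 1.17 ± 0.14 in the double mutant against the Ring1 mutant (limma, adjusted p = 4.3e-05).

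Elf3 is also a chromosomal neighbour of Arl8a. On GRCm38.p6 it is the second measured gene on one side of Arl8a on chromosome 1. The genes next to the 7, taken as 2 measured genes on each side, were 28 in all, a set defined after the data were seen. Elf3 was the 1 of the 28 called in the Rnf2 mutant against control, where 0.139% of all genes were. In the double mutant against the Ring1 mutant 8 were called higher and 3 lower by limma, against 15.0% and 16.6% of all genes. Bach2, a transcription factor of lymphocytes near Epha7 on chromosome 4, rose by 2.00 ± 0.10 (limma, adjusted p = 2.2e-08). The 4 neighbours of Prl8a2 on chromosome 13 were other prolactin-family genes, all with means below the floor.

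Families and partners of the genes, listed with earlier results of these data known, were then read in the double mutant against the Ring1 mutant, without the 7 themselves. Over all genes 15.0% were called higher and 16.6% lower. None of these relatives was called in the Rnf2 mutant against control, where only 0.139% of all genes were. Of 21 other prolactin-family genes 2 were called higher and 1 lower by limma, or 1 and 6 with arrays centred on their median. Only 1 of the 21, Prl2a1, had a mean above the floor. Prl2a1 rose by 1.11 ± 0.10 log2 (limma, adjusted p = 4.6e-06), while Prl3a1 and Prl3d3 lay below the floor, with 0.28 ± 0.09 and -0.25 ± 0.09. Of 26 other placental genes 6 were called higher and none lower. Only 6 of the 26 had a mean above the floor, and with just such genes tested 2 were called higher and 1 lower. Eomes, a regulator of the trophoblast, rose by 3.59 ± 0.10, the envelope-derived fusion gene Syna by 0.83 ± 0.17, and Ascl2, another trophoblast regulator, by 0.51 ± 0.10 (limma, adjusted p = 0.0021 or less). Eomes averaged 6.45 log2 in the double mutants and 2.85 in the Ring1 mutants, below the floor, and Ascl2 lay below it in both, with 3.35 and 2.83, so the sizes of these 2 differences are uncertain. With arrays centred on their median, 4 placental genes were called higher and 6 lower, so the direction of that list depends on the scaling.

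Relatives of Fabp7 and Epha7 were also among the genes called. Of 14 other fatty acid and retinoid binding proteins 6 were called higher and none lower, or 4 and none with arrays centred on their median. Only 5 of the 14 had a mean above the floor, and with just such genes tested 3 were called higher and none lower. Crabp1, which binds retinoic acid, rose by 3.03 ± 0.10 log2 (limma, adjusted p = 5.8e-10), Fabp9, a fatty acid binding protein of the testis, by 1.57 ± 0.27 and Fabp5 by 0.51 ± 0.05. Fabp9 was uneven, with a mean of 4.24 ± 0.74 in the double mutants and 2.67 ± 0.29 in the Ring1 mutants (SD, n = 3), below the floor, so the size of its difference is uncertain. Of 21 other Eph receptors and ephrins 9 were called higher and 2 lower, or 7 and 5 with arrays centred on their median. The receptors Epha1 and Ephb1 rose by 2.32 ± 0.08 and 2.11 ± 0.12 (limma, adjusted p = 8.2e-08 or less). The ligand gene Efnb1 averaged 7.84 ± 0.04 log2 in the double mutants and 6.84 ± 0.03 in the Ring1 mutants (SD, n = 3; limma, adjusted p = 2.1e-07). The median difference of the Eph list was 0.03 and that of the binding protein list 0.06, against -0.05 over all genes.

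The relatives of Sult2b1, Chrdl1 and Arl8a gave other counts. Of 12 other cytosolic sulfotransferases 1 was called higher, Sult4a1 by 0.62 ± 0.17 log2, and 1 lower, Sult5a1 by -0.51 ± 0.09. Only these 2 of the 12 had a mean above the floor. Of 15 other secreted antagonists of bone morphogenetic proteins none was called higher and 1 lower, Chrdl2 by -0.24 ± 0.08 with a level below the floor, and the median of that list was -0.13. The number called lower moved with the scaling, to 7 with arrays centred on their median, 4 after quantile normalization and 0 with arrays centred on the brightest genes, with 0 called higher under each. Of 13 other genes of lysosome positioning 4 were called higher and 4 lower. Snapin and Kxd1, which belong to the BORC complex that recruits Arl8 to lysosomes, changed by -0.89 ± 0.09 and -0.47 ± 0.09, and Vps41, a subunit of the tethering complex HOPS, by -0.53 ± 0.06 (limma, adjusted p = 0.0022 or less). With arrays centred on their median none of this list was called higher and 6 lower. Of 16 lysosomal membrane and lumen genes 5 were called higher and 5 lower, among them the membrane protein genes Lamp2, by 0.77 ± 0.06, and Lamp1, by -0.37 ± 0.06, and the protease gene Ctsb, by 0.43 ± 0.07.

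**Figure D4:**
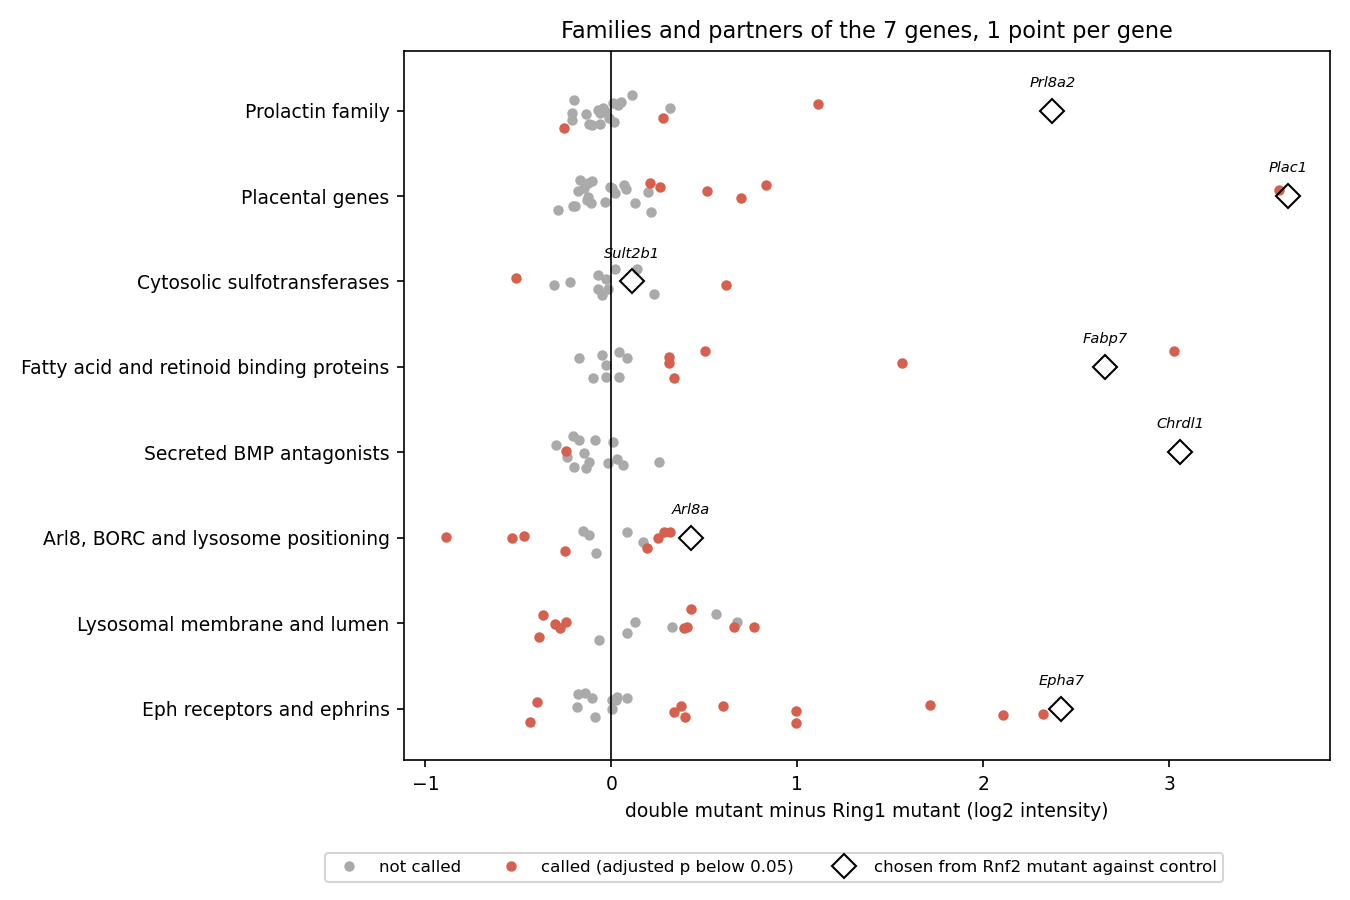
Difference in log2 intensity between double mutant and Ring1 mutant (horizontal axis) for each gene of 8 lists of relatives and partners, with red points for genes called by limma, grey points for genes not called and open diamonds for the 7 chosen genes. Prl8a2 and Chrdl1 lie well to the right of all other genes of their lists. Plac1 and Epha7 lie only just to the right of Eomes and Epha1, and Crabp1 lies beyond Fabp7.

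Markers of other cells were read for the same comparison, in which 15.0% of all genes were called higher and 16.6% lower. Of 25 granulosa and cumulus cell markers 3 were called higher, among them Gata4 by 1.21 ± 0.08 log2 and Nr5a2 by 0.42 ± 0.07, and 1 lower, Cyp19a1 by -0.61 ± 0.07, or 2 and 5 with arrays centred on their median. Their summed intensity ranged from 1208 to 1598 in the double mutants and from 1035 to 1284 in the Ring1 mutants. Of 8 measured blood and immune markers 2 lay above the floor, and 1, the complement gene C1qb, was called higher, by 1.23 ± 0.11, or 1 higher and 3 lower with arrays centred on their median. Their sum ranged from 227 to 255 in the double mutants and from 120 to 149 in the Ring1 mutants. Of 12 stromal, theca and endothelial markers 3 were called higher, among them Kdr by 0.57 ± 0.09, and 2 lower, Myh11 by -0.91 ± 0.07 and Pecam1 by -0.33 ± 0.05. That sum ranged from 487 to 497 in the double mutants and from 623 to 637 in the Ring1 mutants. Such sums follow the brightest genes most. The median difference was -0.07 log2 for the granulosa list, -0.06 for the blood list and 0.01 for the stromal list, against -0.05 over all genes. Of 11 oocyte markers 1 was called higher and 3 lower, namely Mos by -0.53 ± 0.09, Oosp1 by -0.21 ± 0.06 and Ooep by -0.22 ± 0.06. The oocyte count depends on the scaling, with 0 higher and 8 lower when arrays were centred on their median, and 1 and 1 after quantile normalization or centring on the brightest genes. The part of these markers in the differences of the 7 genes was not tested.

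Finally, the genes most like each of the 7 over the 12 arrays were found, by the smallest root mean square difference between log2 values centred on each gene's own mean, among the 12704 genes above the floor. Nearest to Plac1 were the prostaglandin synthase gene Ptgs2, at 0.262 log2, and Chrdl1, at 0.286. Nearest to Chrdl1 were Cd47, at 0.212, and the connexin gene Gjb2, at 0.221. Nearest to Fabp7 were Gca, at 0.202, and the amino acid transporter gene Slc38a2, at 0.243. Prl8a2 had more distant neighbours in Marchf11, at 0.359, and Chrdl1, at 0.376. Sult2b1 had EG546797 at 0.156 and the calcium pump gene Atp2b4 at 0.231. EG546797 was 0.72 log2 higher in the Rnf2 mutant than in control and 0.16 higher in the double mutant than in control. Arl8a had Tafa2 at 0.312 and the phosphatase gene Phlpp1 at 0.315, and Epha7 had Ankmy2 at 0.348 and the lipid transfer gene Pctp at 0.355. In the Rnf2 mutant Ankmy2 and Pctp differed from control by -0.15 and -0.25, less than Epha7. Tafa2 and Phlpp1 differed there by -0.36 and -0.50, less than Arl8a, and Cd47 and Gjb2 by 0.35 each, less than Chrdl1. Marchf11 differed by 0.51, less than Prl8a2, Slc38a2 by 0.23, less than Fabp7, and Atp2b4 by 0.45, less than Sult2b1. Ptgs2, by 1.12, and Gca, by 0.80, changed about as much as Plac1 and Fabp7. Because the 7 were chosen by this very difference, smaller values in genes like them are favoured by the choice. These values are description only.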

How the data were processed

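RNA of 12 pools of 50 oocytes was amplified as cDNA and hybridised to whole-transcript arrays, per the labels' protocols. The deposited table holds 1 log2 intensity per probe set and array. Per the submitters' processing notes, R 2.10.0 and affy were used; the sources used here do not give the background correction, summarization or genome build. Medians of the 12 arrays ranged between 3.81 and 3.93. Of 34760 probe sets, 23286 named 1 gene in the deposited annotation, 1326 several, 10117 none, and 31 were not listed. Names were updated through RefSeq on GRCm38.p6 by gene number (20089), accession (157), symbol (892) or older symbol (615), and 1533 were kept. For 1044 genes with several probe sets the brightest was used; each of the 7 genes has 1.

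The 12 arrays entered a single model with 1 mean for each genotype (lmFit and eBayes of limma 3.58.1, R 4.3.3), and p-values were adjusted by Benjamini-Hochberg over 21526 genes; a gene was called below 0.05. The fit was tested on simulated data. Replicates are called biological in the labels; whether pools shared females is not given, so p-values measure the spread between pools. The 7 genes and the lists were chosen with earlier results of these data known. Besides the 7, the text names per list up to 3 called genes with the smallest adjusted p and the 2 genes most like each of the 7. It also names genes on either side of the threshold of the choice, Rnf2 and Ring1. Alternatives covered probe sets, a dim-gene filter, scaling, variance models, array weights, a fit on the compared groups, a replicate block and each array left out.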

Additional observations from a re-analysis of the deposited data

Results flagged for a closer look

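The effect of Rnf2 loss ran in opposite directions with and without Ring1 for 2 of the 7 genes, and this difference was not tested because the difference in the Rnf2 mutant chose the genes. For Epha7, every double-mutant array lay above every Ring1-mutant array and every Rnf2-mutant array lay below every control, with a gap between the effects of 3.48 log2. For Arl8a the same held, with a gap of 1.61 log2. Over all genes 18.8% had every double-mutant array above every Ring1-mutant array. The position of the Rnf2 mutants below the controls follows the choice, and the share of all genes with both patterns was not counted.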

How the results depend on the processing

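Under 22 alternatives, the differences between double mutant and Ring1 mutant kept their direction and their side of the threshold for Plac1, Prl8a2, Fabp7, Chrdl1 and Epha7. Many of these settings, such as a variance model or a left-out control or Rnf2 mutant array, cannot move the differences. Such settings change only the SE and the adjusted p, so they are no check of direction. Arl8a ranged from 0.30 to 0.53 log2 and lost its call with arrays centred on their median. Sult2b1 was called under none; its sign turned to -0.04 after quantile normalization and to -0.01 with arrays centred on their median, a choice that shifts every such difference by -0.124 log2 and gave 7559 genes called lower, against 3584 as deposited. In the comparison that chose the genes, 30 genes were called, but 54 with a variance trend, 6 with only the groups compared in the fit (3 of the 7 among them), and 10 to 33 with each array left out in turn. Without Rnf2 mutant replicate 1 the number was 14, without Rnf2 mutant replicate 2 it was 10, without control replicate 1 or 2 it was 16, and without double mutant replicate 3 it was 19. Of the 7 genes 5 passed without Rnf2 mutant replicate 2, 6 without Rnf2 mutant replicate 1 or control replicate 3, and 7 without each of the others. With the replicate number as a block 18 genes were called, the 7 included, and 6628 in the double mutant against the Ring1 mutant. Same-numbered arrays correlated between -0.160 and 0.204 in their deviations from the genotype means, and 14 of 36 best matches had the same number. Among control, Ring1 mutant and double mutant these correlations ran from 0.003 to 0.204, and with the Rnf2 mutant from -0.160 to 0.014. With 3 arrays per genotype, these values cannot decide whether the numbers pair the samples. Among the relatives and markers, Sult4a1 lost its call without Ring1 mutant replicate 3 (0.45), Ooep without that array (-0.18) or double mutant replicate 2 (-0.19), and both Ooep (-0.16 and -0.15) and Oosp1 (-0.12 and -0.14) after quantile normalization and with arrays centred on the brightest genes. Ooep also lost it with only the groups compared in the fit. With each array left out in turn, Chrdl2 ranged from -0.29 to -0.18 and lost its call 4 times, Prl3a1 from 0.19 to 0.36 with 5 losses and Prl3d3 from -0.34 to -0.20 with 9.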
